A study of Arabidopsis thaliana with 9 samples.

Results

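LTP1 to LTP6 are 6 genes for small lipid transfer proteins, chosen by identifier (AT2G38540, AT2G38530, AT5G59320, AT5G59310, AT3G51600 and AT3G08770 for LTP1, LTP2, LTP3, LTP4, LTP5 and LTP6), out of 22254 genes in the count table; all 6 were in the table and passed the filter on low counts. They were chosen with values of clpp2-2 against the wild type known, so their differences in any comparison that uses the clpp2-2 libraries are a description without a test. RNA was sequenced from whole seedlings of Arabidopsis thaliana, harvested at 2 weeks from shaken liquid culture under 16 h of light (150 µmol m-2 s-1, 22 °C) and 8 h of dark (18 °C). The groups were clpp2-2 and clpp2-1, each a knock-out line of CLPP2 (AT5G23140), and the wild type (wt), with 3 libraries each, all in the accession Columbia-0. The protein made from CLPP2 is the proteolytic part of Clp, a protease of the mitochondrial matrix. The insertion sites of the lines are not given in the sources used here. Nor is it stated whether replicates came from separate cultures, so p-values reflect the spread among these libraries alone, and that spread may be technical.

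Non-specific lipid transfer proteins are small secreted plant proteins in which conserved cysteines, joined in disulfide bridges, hold a fold around a hydrophobic cavity that takes up a lipid. They are found mainly in the cell wall of epidermal and other surface tissues and have been linked to the deposition of cuticular wax, cutin and suberin and to responses to drought, cold and pathogens. LTP1 is a cell wall protein of the epidermis, LTP2 is known from the cuticle of etiolated hypocotyls, and LTP5 from pollen tube growth. LTP3 is a target of MYB96, a transcription factor that acts in abscisic acid (ABA) signalling under drought and activates wax synthesis, and LTP3 and LTP4 act together in susceptibility to bacteria.

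Each library held between 36043744 and 36477053 counts over 21459 to 21546 genes, and values are CPM (counts scaled to normalised library sizes). CLPP2 itself averaged 4.60 ± 0.0709 CPM in clpp2-2 and 5.56 ± 0.616 CPM in clpp2-1, against 44.7 ± 1.83 CPM in wt (SD, n = 3 each). Seed storage transcripts varied within genotypes: the 8 markers summed to 0.632 to 1.13 CPM in clpp2-2, 0.896 to 13.1 CPM in clpp2-1 and 0.377 to 108.1 CPM in wt. The 6 markers of shoot epidermis, the tissue in which most LTPs are known, were all detected and summed to 208 to 255 CPM in clpp2-2, 205 to 243 CPM in clpp2-1 and 214 to 224 CPM in wt. None of these 6 passed the test of edgeR, DESeq2 or limma-voom in either line, and 0 of them had an unadjusted p under 0.05 in edgeR.

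The 6 genes lie at 4 loci and form 2 close pairs. In TAIR10.1, LTP2 (chr2:16128176-16129399) and LTP1 (chr2:16130290-16131240) follow each other on the plus strand, 890 bases apart. LTP4 (chr5:23924990-23925957, minus strand) and LTP3 (chr5:23928954-23929816, plus strand) stand back to back, 2996 bases apart, with no annotated gene between them. LTP5 (chr3:19138338-19139423) and LTP6 (chr3:2664069-2664888) lie on the minus strand, far from each other. Each gene has 2 exons, the second of which holds the last 10 coding bases, and the intron measures from 94 bases in LTP3 and LTP6 to 138 bases in LTP4. The coding sequences run from 339 bases in LTP4 to 357 bases in LTP1, LTP2 and LTP5, with 9 or 10 cysteine codons each.

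The pairs that neighbour each other are also the pairs with the most similar coding sequences. LTP3 and LTP4 were identical in 84.5% of aligned columns and LTP1 and LTP2 in 82.4%, while the other pairings ranged from 50.3% for LTP5 with LTP6 to 67.8% for LTP1 with LTP5. Since LTP3 and LTP4 carry the largest differences between genotypes, the first 300 bases of their coding sequences, which lie in exon 1 (RefSeq, TAIR10.1, LTP3 chr5:23929051-23929350 on the plus strand and LTP4 chr5:23925473-23925772 on the minus strand), are shown with capitals for the bases that differ from, or have no counterpart in, the other gene. The longest stretch shared by the whole coding sequences has 44 bases, and LTP3 has 9 bases that LTP4 lacks.
LTP3: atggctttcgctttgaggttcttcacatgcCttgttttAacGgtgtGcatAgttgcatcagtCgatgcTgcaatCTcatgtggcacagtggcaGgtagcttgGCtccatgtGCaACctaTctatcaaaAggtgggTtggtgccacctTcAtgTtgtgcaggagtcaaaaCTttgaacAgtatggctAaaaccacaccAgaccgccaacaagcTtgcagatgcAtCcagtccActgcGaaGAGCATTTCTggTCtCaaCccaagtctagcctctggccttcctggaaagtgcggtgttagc
LTP4: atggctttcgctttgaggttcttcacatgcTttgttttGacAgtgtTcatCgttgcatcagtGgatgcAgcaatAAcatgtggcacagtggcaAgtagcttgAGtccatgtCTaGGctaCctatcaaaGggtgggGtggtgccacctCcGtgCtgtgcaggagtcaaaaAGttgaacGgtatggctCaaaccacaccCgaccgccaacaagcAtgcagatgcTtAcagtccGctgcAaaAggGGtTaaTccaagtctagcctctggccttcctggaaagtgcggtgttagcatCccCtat
The differences, 46 capitals in LTP3 and 39 in LTP4, are spread along the stretch. Of all 31-base windows of the transcript, 3.52% in LTP3, 4.0% in LTP4, 1.25% in LTP1 and 0.923% in LTP2 also occur elsewhere in the genome, and none in LTP5 and LTP6. Counts of the paired genes are uncertain to the extent that the authors' quantification divided such reads between them.

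**Figure D1:**
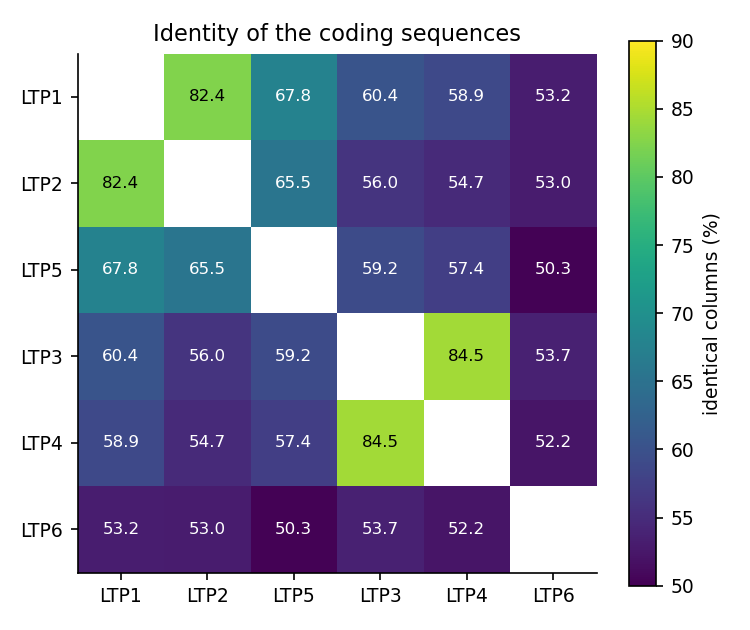
Share of identical columns, in percent, in pairwise alignments of the 6 coding sequences (rows and columns are the genes, ordered so that close genes adjoin). The LTP1 and LTP2 pair at 82.4% and the LTP3 and LTP4 pair at 84.5% stand above all other pairs, and LTP6 is at most 53.7% identical to any other.

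LTP2 was the most abundant of the 6 transcripts in all genotypes, and LTP3, LTP4 and LTP6 exchanged places at the low end. On the scale of CPM per kb of exon, which allows levels to be compared between genes, LTP2 averaged 1496 ± 237 in clpp2-2, 1321 ± 235 in clpp2-1 and 1244 ± 126 in wt (SD, n = 3 each). LTP5 followed with 348 ± 51.7 in clpp2-2, 357 ± 44.6 in clpp2-1 and 352 ± 21.3 in wt, and LTP1 with 158 ± 26.3, 170 ± 19.9 and 154 ± 20.5 CPM per kb in clpp2-2, clpp2-1 and wt. In wt, LTP4 at 149 ± 29.9 CPM per kb overlapped with LTP1, and LTP3 (62.4 ± 4.36) stood above LTP6 (34.8 ± 6.91). In clpp2-1 the order was the same, but LTP3 (46.8 ± 5.93) and LTP6 (40.5 ± 10.1) overlapped. In clpp2-2 the lower part of the order was turned round: LTP6 (53.9 ± 2.46) stood above LTP3 (21.1 ± 1.67), and LTP4 (15.9 ± 3.88 CPM per kb) was lowest, its range of 12.7 to 20.2 meeting that of LTP3, 19.3 to 22.6.

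**Figure D2:**
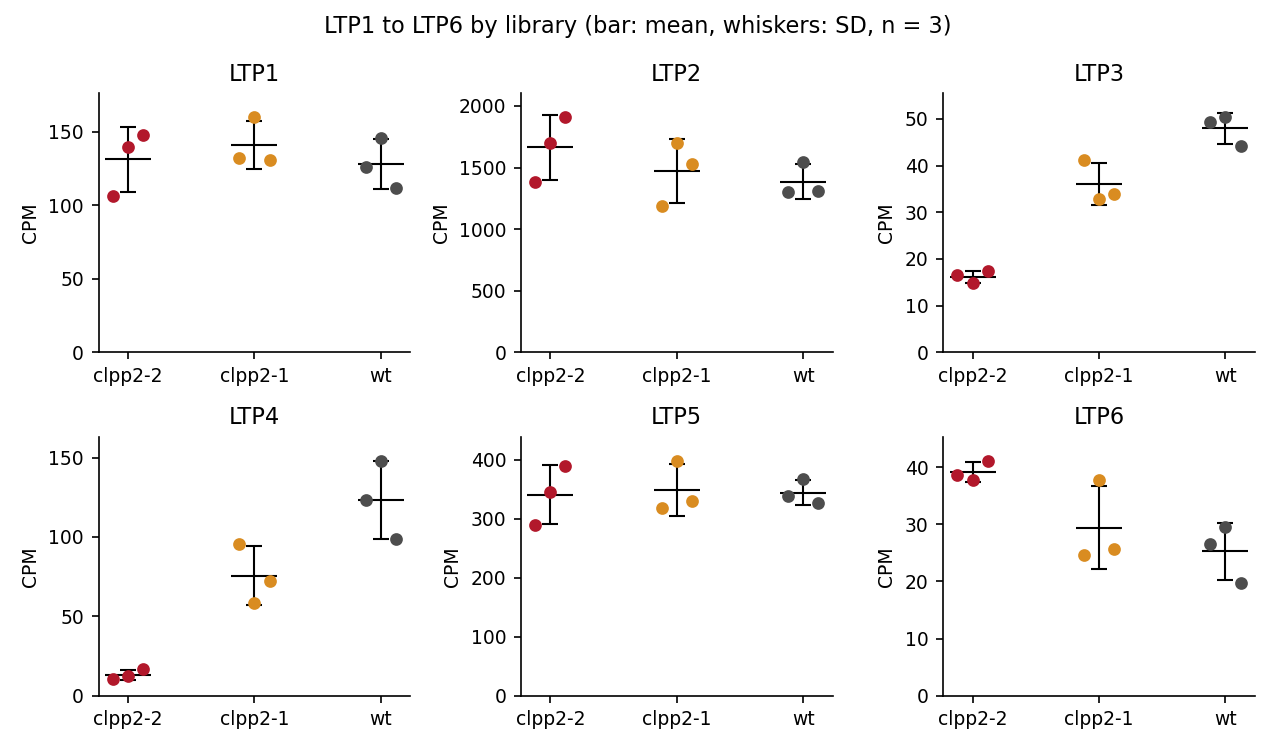
CPM (vertical axes, each from 0) of the 6 genes in the 3 libraries of clpp2-2, clpp2-1 and wt; points are libraries in the order 1, 2, 3, the horizontal bar is the mean and whiskers are the SD. LTP3 and LTP4 are separate in all 3 genotypes, LTP6 is higher in all 3 clpp2-2 libraries than in wt, and the genotypes overlap for LTP1, LTP2 and LTP5.

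LTP4 differed most between genotypes. It had 10.5, 12.2 and 16.8 CPM in clpp2-2 and 95.4, 58.7 and 72.2 CPM in clpp2-1, against 123.3, 148.1 and 98.4 CPM in wt. The 3 genotypes did not overlap, and the lowest wt library lay only a little above the highest of clpp2-1. The log2 fold change of LTP4 was -3.23 (SE 0.247) in clpp2-2 against wt and -2.52 (SE 0.243) in clpp2-2 against clpp2-1.

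LTP3, its divergent neighbour, showed the same order with smaller differences. LTP3 had 16.4, 14.8 and 17.4 CPM in clpp2-2 and 41.3, 32.9 and 33.9 CPM in clpp2-1, against 49.4, 50.4 and 44.2 CPM in wt, again without overlap between genotypes. All 3 clpp2-2 libraries lay below all 3 of wt for 16.7% of all genes tested, and below all 3 of clpp2-1 for 15.8%. The log2 fold change was -1.57 (SE 0.103) in clpp2-2 against wt and -1.15 (SE 0.103) in clpp2-2 against clpp2-1. By edgeR with Benjamini-Hochberg adjustment over all genes, 2 of the 6 genes, LTP3 and LTP4, were called lower in clpp2-2 than in wt, where 4.57% of all genes tested were called lower (10.1% in either direction). The same pair was called lower in clpp2-2 than in clpp2-1, where 1.63% of all genes were called lower (3.97% in either direction). DESeq2, and edgeR without library 2 of clpp2-1 or without library 2 of wt, called LTP6 as well in clpp2-2 against wt. Nothing is read from these counts, since this difference was known when the genes were chosen.

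SEP3 and AP3, 2 of 5 floral marker genes, were lower in clpp2-2 than in wt. All markers were chosen with earlier results of these data known, so they give no independent test. The 5 floral markers summed to 4.26 to 4.80 CPM in clpp2-2 and 9.31 to 12.5 CPM in clpp2-1, against 10.9 to 12.4 CPM in wt. Most of it came from SEP3, a MADS-box factor of floral organs. Each marker was detected in every genotype, but AP1 had 0 counts in wt 1 and clpp2-2 2, and PI in wt 1 and clpp2-2 1. AP3 had 3 to 5 counts in clpp2-2 and 12 to 14 in wt. In clpp2-2, 2 of the 5 passed the test of edgeR against wt: SEP3 (log2 fold change -1.45, SE 0.136, adjusted p = 0.00102) and AP3 (log2 fold change -1.53, adjusted p = 0.046), which specifies petals and stamens, beside 4.57% of all genes called lower. AP1, PI and AG did not pass (adjusted p = 0.684, 0.659 and 0.133 by edgeR), and the floral sums of clpp2-1 and wt overlapped. AP3 was also low in clpp2-1, at 0.109 to 0.191 CPM (log2 fold change -1.28 against wt, adjusted p = 0.758 by edgeR). Between clpp2-2 and clpp2-1 its log2 fold change was -0.25 (adjusted p = 0.826 by edgeR). DESeq2 did not call AP3 in clpp2-2 against wt (adjusted p = 0.0983). SEP3 stayed called with any library left out, whereas AP3, at 0.0824 to 0.141 CPM in clpp2-2 and 0.331 to 0.377 CPM in wt, was lost with each of the 9 libraries left out (adjusted p = 0.0648 to 0.142). The part of floral tissue in the LTP3 and LTP4 differences was not tested. In whole seedlings, fewer cells of a type and less RNA per cell cannot be told apart. The sums of the other marker lists overlapped between clpp2-2 and wt: the 10 root markers summed to 55.1 to 75.1 CPM in clpp2-2 and 61.9 to 99.1 CPM in wt, the 6 guard cell markers to 18.6 to 23.7 CPM in clpp2-2 and 21.5 to 27.0 CPM in wt, and the 5 green tissue markers to 10475 to 13333 CPM in clpp2-2 and 7708 to 11549 CPM in wt. Of the seed storage markers, whose sums are given above, edgeR called 0 of the 6 tested in clpp2-2 against wt (median log2 fold change -6.61), but all 6 had an unadjusted p under 0.05, as did 2 of the 5 green tissue markers and 1 of 9 tested root markers. DESeq2 called 5 of the seed storage, 2 of the green tissue and 1 of the root markers, and limma-voom called 0 of each. The part of these tissues in the values of the 6 genes was not tested.

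The proportion of the 2 transcripts within the pair differed as well. Per kb of exon, LTP4 stood at 0.751 ± 0.151 times LTP3 in clpp2-2 and 1.92 ± 0.250 times in clpp2-1, against 2.37 ± 0.331 times in wt (SD, n = 3 each). All 3 clpp2-2 libraries had more LTP3 than LTP4 on this scale, and all 6 other libraries had more LTP4. Summed over both genes, the pair had 27.0 to 34.1 CPM in clpp2-2 and 91.6 to 136.7 CPM in clpp2-1, against 142.6 to 198.5 CPM in wt. The sum does not depend on how reads shared by LTP3 and LTP4 were divided between them. How reads that match other places in the genome were counted was not examined. The log2 fold change of the sum was -2.54 in clpp2-2 against wt and -1.92 in clpp2-2 against clpp2-1. In the tandem pair on chromosome 2, LTP2 stood at 9.50 ± 0.354 times LTP1 in clpp2-2 and 7.79 ± 1.03 times in clpp2-1, against 8.12 ± 0.538 times in wt.

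**Figure D3:**
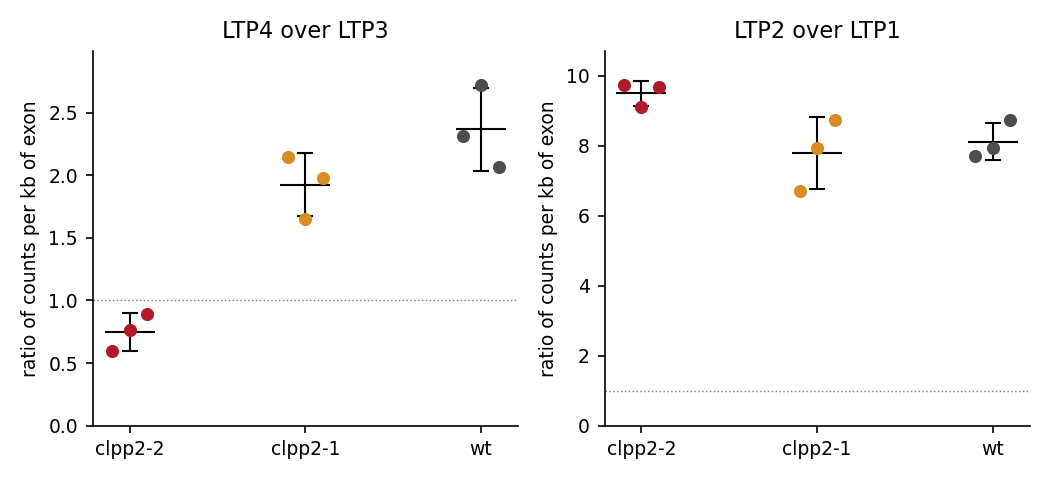
Ratio of LTP4 to LTP3 (left) and of LTP2 to LTP1 (right), each as counts per kb of exon, in the 3 libraries of clpp2-2, clpp2-1 and wt; bars are means, whiskers SD, and the dotted line marks equal levels. The LTP4 to LTP3 ratio lies below 1 in the 3 clpp2-2 libraries and above 1 in the other 6.

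LTP6 was the one gene of the 6 with a higher level in all 3 clpp2-2 libraries than in all 3 wt libraries. It had 38.6, 37.7 and 41.1 CPM in clpp2-2 and 24.6, 37.8 and 25.7 CPM in clpp2-1, against 26.5, 29.5 and 19.7 CPM in wt. Library 2 of clpp2-1 reached the clpp2-2 range, and the other 2 lay within the wt range. The log2 fold change of LTP6 was 0.63 (SE 0.185) in clpp2-2 against wt and 0.41 in clpp2-2 against clpp2-1. Among all genes tested, 17.0% had all 3 clpp2-2 libraries above all 3 of wt.

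LTP1, LTP2 and LTP5 overlapped between all 3 genotypes. LTP2 had 1386, 1699 and 1910 CPM in clpp2-2 and 1184, 1699 and 1528 CPM in clpp2-1, against 1300, 1547 and 1306 CPM in wt (log2 fold change 0.27 in clpp2-2 against wt, SE 0.154). LTP5 had 289, 345 and 390 CPM in clpp2-2 and 318, 399 and 331 CPM in clpp2-1, against 339, 368 and 327 CPM in wt (log2 fold change -0.015 in clpp2-2 against wt). LTP1 had 106, 140 and 148 CPM in clpp2-2 and 132, 160 and 131 CPM in clpp2-1, against 126, 146 and 112 CPM in wt (log2 fold change 0.037 in clpp2-2 against wt). LTP2 alone made up 75.4 ± 0.346% of the CPM of the 6 genes in clpp2-2, 69.7 ± 3.28% in clpp2-1 and 67.4 ± 1.16% in wt. The total of the 6 genes was 0.217 ± 0.0309% of all counts in clpp2-2 and 0.212 ± 0.0298% in clpp2-1, against 0.206 ± 0.0176% in wt, with overlapping ranges.

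The 6 genes were tested in clpp2-1 against wt, where neither mean comes from clpp2-2; the wt libraries are the same as in the comparison known at the choice. None of the 6 passed the test of edgeR, of DESeq2, of limma-voom or with the replicate number as a block, and 2 of the 6, LTP3 and LTP4, had an unadjusted p under 0.05 by edgeR. Across all genes tested, 0.177% were called in this comparison and 6.44% had an unadjusted p under 0.05. The block called 23 genes in place of 36. LTP3 had a log2 fold change of -0.41 (SE 0.0994, adjusted p = 0.587 by edgeR) and LTP4 of -0.71 (SE 0.220, adjusted p = 0.758 by edgeR). For both, all 3 clpp2-1 libraries lay below all 3 of wt, as they did for 4.44% of all genes tested. DESeq2 gave an adjusted p of 0.0632 for LTP3 and of 0.224 for LTP4, and over all alternatives the adjusted p ranged from 0.0632 to 1.0 for LTP3 and from 0.224 to 1.0 for LTP4. The other 4 genes differed by 0.018 (LTP5), 0.087 (LTP2), 0.14 (LTP1) and 0.22 (LTP6) on the log2 scale, with adjusted p from 0.808 to 0.981 in edgeR.

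**Figure D4:**
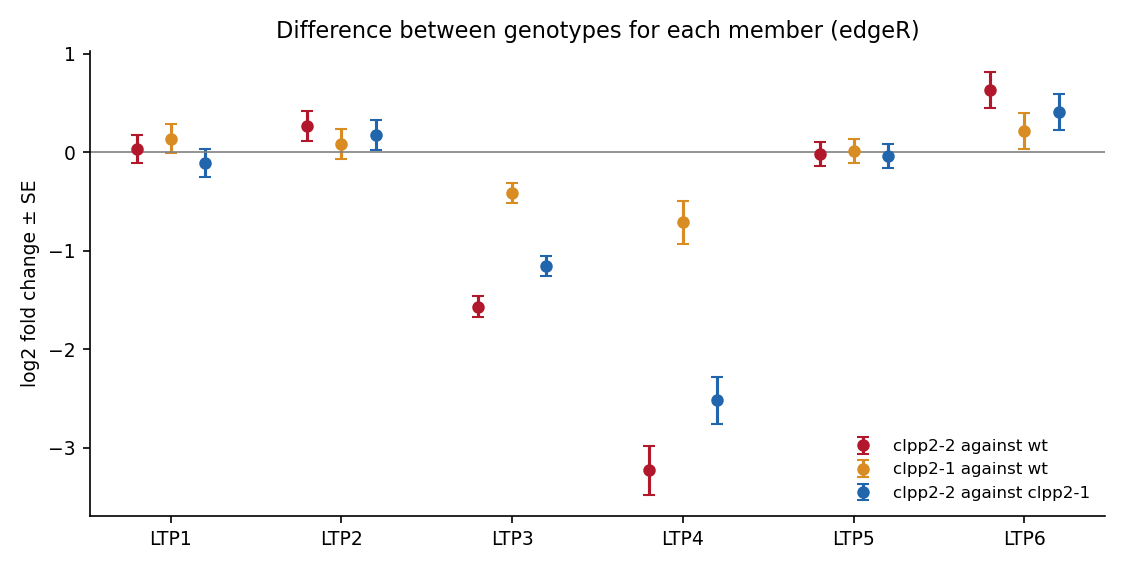
Log2 fold change with its standard error (vertical axis, edgeR) of the 6 genes in clpp2-2 against wt, clpp2-1 against wt and clpp2-2 against clpp2-1. LTP3 and LTP4 lie below 0 in all 3 comparisons, from -0.41 for LTP3 in clpp2-1 to -3.23 for LTP4 in clpp2-2, and the other 4 genes lie between -0.10 and 0.63.

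Library 3 of clpp2-2 was the highest of its genotype for all 6 genes, and so was library 2 of wt. Library 2 of clpp2-1 was the highest of its genotype for LTP1, LTP2, LTP5 and LTP6 and the lowest for LTP3 and LTP4. Over the 9 libraries, which share their genotypes, the log2 CPM of LTP3 and LTP4 had a Pearson correlation of 0.992 and that of LTP1 and LTP5 of 0.897, while LTP3 and LTP6 had -0.772. Among 18065 genes with a mean of at least 1 CPM, those most like LTP3 were NAC1 (0.991), a NAC domain transcription factor, SEP3 (0.986) and AT3G43230 (0.985). Those most like LTP4 were AT3G11600 (0.988), XYL4 (0.988), a beta-D-xylosidase of the cell wall, and AT3G43230 (0.986). RD22, a BURP domain gene known for its induction by drought, was most like LTP5 (0.976), and HINT 2 most like LTP2 (0.977), followed by HVA22G (0.958) and PBA1 (0.949), a proteasome subunit. LTP6 was most like AT2G20270, a thioredoxin superfamily gene (0.976), RPS15 (0.973) and EIF2 (0.971), genes of ribosomes and translation initiation. LTP1 had the weakest best matches, AT4G24730 (0.928), AT4G12870 (0.925) and AGO2 (0.909), and after RD22 those of LTP5 were AT5G27300 (0.93) and AT1G49750 (0.923). With 9 libraries in 3 genotypes these values are a description.

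No neighbour of LTP4 and LTP3 was called in any comparison. Of the 5 genes on each side of the 4 loci, 35 were tested, and in clpp2-2 against wt 1 was called higher (AT3G08740, near LTP6, log2 fold change 0.40) and 1 lower (FER, a receptor kinase gene near LTP5, log2 fold change -0.24), 2 of 35 beside 10.1% of all genes called. Around LTP4 and LTP3, 8 neighbours were tested and 0 were called by edgeR in clpp2-2 against wt, with 1 at an unadjusted p under 0.05. UBC7, the ubiquitin-conjugating enzyme gene next to LTP4, had a log2 fold change of -0.00177 (SE 0.0647). AT5G59330, next to LTP3 and annotated in the same protein superfamily, was removed by the filter on low counts. In clpp2-1 against wt, 0 of the 35 were called by edgeR and 2 had an unadjusted p under 0.05, beside 0.177% of all genes called and 6.44% with such a p.

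The stretches before the 2 divergent genes are shown because their transcripts differed together (300 bases upstream of the annotated start, RefSeq TAIR10.1, LTP3 chr5:23928654-23928953 on the plus strand and LTP4 chr5:23925958-23926257 on the minus strand). Capitals mark matches to any of 5 motifs, searched on both strands: ACGTG, the core of the ABA response element, CACGTG, the G-box, which contains it, TAAATGNA, the L1 box of epidermal genes, CAACTG, a MYB motif, and TATAAA.
LTP3: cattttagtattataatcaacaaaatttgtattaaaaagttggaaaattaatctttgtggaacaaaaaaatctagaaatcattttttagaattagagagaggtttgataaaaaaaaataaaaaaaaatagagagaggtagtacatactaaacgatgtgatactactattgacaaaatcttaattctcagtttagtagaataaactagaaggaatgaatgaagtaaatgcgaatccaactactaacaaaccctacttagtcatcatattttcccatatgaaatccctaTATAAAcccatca
LTP4: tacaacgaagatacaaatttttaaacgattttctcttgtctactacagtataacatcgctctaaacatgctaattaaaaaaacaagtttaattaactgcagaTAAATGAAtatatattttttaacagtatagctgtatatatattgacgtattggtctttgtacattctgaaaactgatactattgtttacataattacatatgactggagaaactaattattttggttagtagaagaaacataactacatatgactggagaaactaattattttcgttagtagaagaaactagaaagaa
LTP3 holds TATAAA 13 bases before its start, a motif found in 52.2% of the 22055 stretches of this length, and LTP4 holds TAAATGNA 198 bases before its start, found in 11.9%. Of the other members, LTP2 has ACGTG (26.4% of stretches) and LTP6 has CAACTG (7.59%), both on the opposite strand, and LTP1 and LTP5 have none of the 5; CACGTG (7.79%) is in none of the 6. No motif was shared between LTP3 and LTP4 in these windows.

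The relatives of the 6 genes gave a mixed picture. Of LTP7 to LTP12, 4 were in the table and 3 tested, and edgeR called 0 of 3 in clpp2-2 against wt, with 1 at an unadjusted p under 0.05; DESeq2 called 1 and limma-voom 0. LTP8 had 30.1 ± 2.17 CPM in clpp2-2, with a range in wt from 34.5 to 74.0 CPM (log2 fold change -0.81, adjusted p = 0.0626 by edgeR, adjusted p = 0.00732 by DESeq2). LTP7 had a log2 fold change of -0.066 (adjusted p = 0.798) and LTP10 of -0.12 (adjusted p = 0.793) in edgeR. Without library 2 of wt, edgeR called LTP8 (log2 fold change -1.04, adjusted p = 0.0074) and LTP10 (log2 fold change -0.39, adjusted p = 0.0306). LTP11, at a mean of 0.103 CPM in clpp2-2, was not tested.

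Among the other genes annotated as lipid-transfer proteins, more were lower than higher in clpp2-2. Of 57 tested, 11 fell and 2 rose against wt, beside 4.57% of all genes called lower and 5.50% called higher. The median log2 fold change was -0.21, beside -0.012 over all genes. Among the 51 tested that are annotated in the cysteine-rich superfamily, the same 11 fell and 2 rose (median log2 fold change -0.24). AT5G55410 rose to 13.3 ± 4.41 CPM in clpp2-2, against 1.62 CPM in wt (log2 fold change 3.04, SE 0.404, adjusted p = 0.00488 by edgeR). AT4G12510 fell to 0.151 CPM in clpp2-2, against 2.08 CPM in wt (log2 fold change -3.76, adjusted p = 0.0254 by edgeR), on 0, 8 and 8 counts in clpp2-2 and 84, 85 and 58 in wt. AT4G12520 (log2 fold change -2.97) and AT4G12490 (log2 fold change -1.46) lie close to AT4G12510 on chromosome 4 and fell as well. EARLI1 (AT4G12480, log2 fold change -0.92) belongs to the same cluster and was also called lower, so several of the 11 come from 1 cluster. AT4G12510 and AT4G12520 are near copies, with 53.0% and 59.1% of 31-base windows found elsewhere in the genome, so their separate values are uncertain. Leaving out 1 library moved the number that fell to between 3 and 13, and both AT4G12510 and AT4G12520 were lost without library 2 or 3 of clpp2-2 or library 1 or 3 of wt, AT4G12520 also without library 1 of clpp2-2 (adjusted p up to 0.077 for AT4G12510 and 0.0876 for AT4G12520). AT4G12490 and AT5G55410 stayed called with any 1 library left out.

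Genes of the surface barriers that LTPs are thought to serve changed in part in clpp2-2. Their counts are to be read beside the same 4.57% of genes called lower and 5.50% called higher. The wax, cutin, suberin and ABA lists were chosen with earlier results of these data known, so they give no independent test. In the cuticular wax list, 4 of 21 tested genes fell and 2 rose (median log2 fold change -0.16). DEWAX, a repressor of wax synthesis, rose to 106 ± 8.22 CPM in clpp2-2, against 64.0 ± 5.10 CPM in wt (log2 fold change 0.73, SE 0.111, adjusted p = 0.00838 by edgeR), and stayed called with any library left out. KCS1 (log2 fold change -0.63), KCS2 (-0.53) and KCS20 (-0.36), which elongate very-long-chain fatty acids, fell (adjusted p = 0.0145, 0.0349 and 0.0434 by edgeR). The remaining 2 called wax genes were KCS9 (log2 fold change -0.31) and CER3 (0.30). All called wax genes were named on these values. With 1 library left out, 0 to 3 wax genes fell: KCS1 was lost without library 1 or 2 of clpp2-2 or library 3 of wt (adjusted p up to 0.0659), KCS2 without any clpp2-2 library, library 2 of clpp2-1 or library 1 or 3 of wt (up to 0.122), and KCS20 without any library but wt 2 (up to 0.13).

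In the suberin list 4 of 10 tested genes fell and none rose (median log2 fold change -0.65), and in the cutin list 1 of 13 fell. ASFT, which adds ferulate to suberin, fell to 12.8 ± 0.574 CPM in clpp2-2, against 20.7 ± 1.37 CPM in wt (log2 fold change -0.70, SE 0.0981, adjusted p = 0.00607 by edgeR), and stayed called with any library left out. CYP86A1 (log2 fold change -0.68), a fatty acid hydroxylase of root suberin, FAR4 (-1.23), a fatty acyl reductase, and ABCG20 (-0.29), a transporter, also fell, with adjusted p from 0.024 to 0.0399 by edgeR. The cutin gene that fell was CYP86A8 (log2 fold change -0.39, adjusted p = 0.0256 by edgeR). Leaving out any clpp2-2 library ended the calls of CYP86A1, FAR4, ABCG20 and CYP86A8 (adjusted p up to 0.0995, 0.0789, 0.143 and 0.0901), as did library 3 of wt for CYP86A1, ABCG20 and CYP86A8, library 1 of wt for ABCG20 and CYP86A8, and library 1 or 3 of clpp2-1 for ABCG20. The count of suberin genes that fell then ranged from 1 to 6, and DESeq2 called 8. Since suberin is made mainly in the root, the root marker sums given above move in the same direction with overlap, and their part in the suberin values was not tested.

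Genes of the ABA and drought response did not move as 1 group. Of 24 tested, 4 rose and 1 fell in clpp2-2, beside 5.50% of all genes called higher and 4.57% called lower (median log2 fold change 0.19). COR15B rose to 12.8 ± 0.501 CPM in clpp2-2, against 2.11 ± 0.655 CPM in wt (log2 fold change 2.60, SE 0.210, adjusted p = 0.000514 by edgeR), and COR15A to 11.9 ± 1.28 CPM, against 5.81 ± 1.03 CPM in wt (log2 fold change 1.03, adjusted p = 0.00761 by edgeR); both encode chloroplast proteins induced by cold, and the 2 are adjacent paralogs whose shared reads were not examined. HAI2, a protein phosphatase induced by ABA, rose (log2 fold change 1.62, adjusted p = 0.0174 by edgeR) at levels under 1 CPM, and LTI30, a dehydrin, fell (log2 fold change -0.65, adjusted p = 0.0245 by edgeR). ABI1, the remaining called gene of this list, had a log2 fold change of 0.23. All called genes of this list were named on these values. HAI2 and LTI30 were lost without any 1 clpp2-2 library or library 1 or 3 of wt (adjusted p up to 0.0759 for HAI2 and 0.0934 for LTI30). MYB96 did not pass the test (log2 fold change -0.21, adjusted p = 0.297 by edgeR). In clpp2-1 against wt, edgeR, DESeq2 and limma-voom called 0 of the 127 tested genes of these 6 lists. By edgeR, 0.177% of all genes were called. An unadjusted p under 0.05 in edgeR was reached by 7 of the 127, beside 6.44% of all genes. HAI2 (log2 fold change 1.15), LTI30 (-0.45) and KCS1 (-0.35) had the same sign in clpp2-1 as in clpp2-2. None of them was called in clpp2-1 against wt (adjusted p = 0.72, 0.758 and 0.758 by edgeR). They were not called between the lines (adjusted p = 0.391, 0.446 and 0.201 by edgeR). DEWAX (-0.027, SE 0.111), AT5G55410 (-0.051, SE 0.405) and AT4G12520 (0.0091, SE 0.548) had the opposite sign in clpp2-1. These values lay within their SE of 0 (adjusted p = 0.968, 0.983 and 0.996 by edgeR), so nothing is read from their sign.

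**Figure D5:**
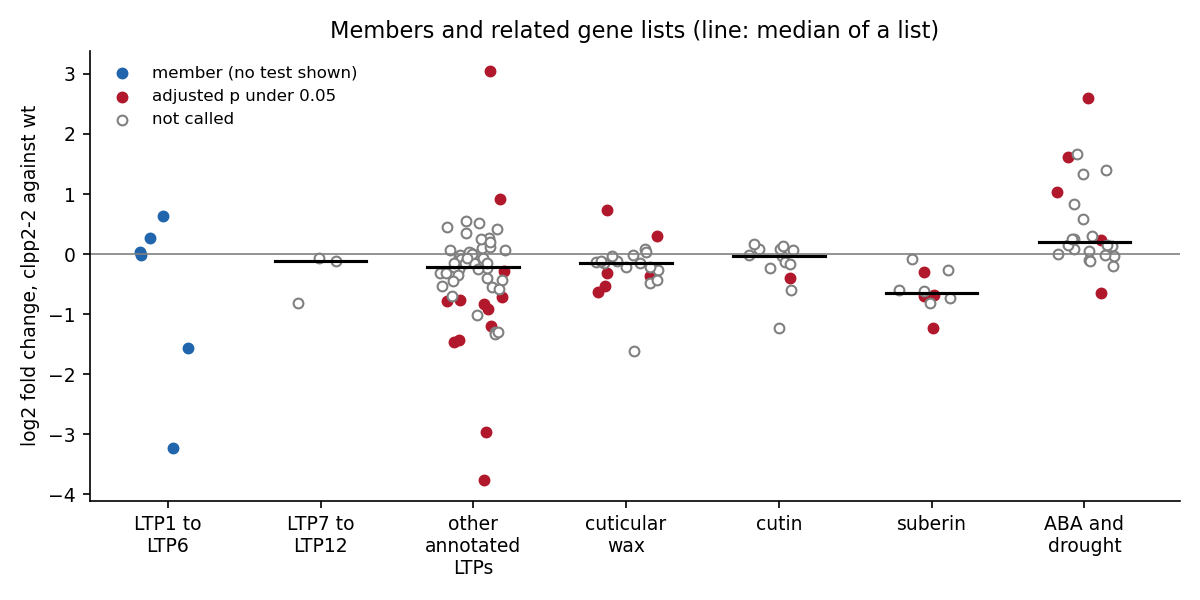
Log2 fold change in clpp2-2 against wt (vertical axis, edgeR) of LTP1 to LTP6 and of the tested genes of 6 related lists; filled red points passed an adjusted p under 0.05, open points did not, blue points are the 6 genes, shown without a test, and lines are list medians. The suberin median of -0.65 and the LTP median of -0.21 lie below 0, and COR15B and AT5G55410 are the highest points.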

How the data were processed

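RNA of whole seedlings was sequenced by the authors in 9 libraries, 3 each of clpp2-2, clpp2-1 and wt. The deposited table holds expected counts, that is Salmon-type read estimates per gene in whole numbers, for 22254 genes with at least 10 counts over all libraries; per the submitters' processing notes the tools were FastQC, Salmon 0.14.0, DESeq and DESeq2, with the build TAIR10. The use made of each tool was not stated in the labels. All library totals were close to each other, so the counts may have been scaled before deposition.

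Counts were tested with edgeR 4.0.16 (R 4.3.3; TMM, filterByExpr, 1 quasi-likelihood fit of all 9 libraries; 20294 genes tested, 1960 removed), with calls at an adjusted p under 0.05 (Benjamini-Hochberg, all genes of 1 comparison). Standard errors were obtained by dividing the size of the log2 fold change by the square root of F. CPM use TMM-adjusted library sizes, and CPM per kb the annotated exon bases in TAIR10.1, whose annotation holds 22056 of the identifiers. Log2 CPM for correlations had a prior count of 2. Coding sequences were aligned globally (Biopython 1.88), and sequences and positions were read from the RefSeq genome TAIR10.1. Protein sequences were not used here.

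The 6 genes, the gene lists and the markers were chosen with earlier results of these data known. Named genes were, by rule, CLPP2, the 6 genes, the 3 genes most correlated with each, LTP7 to LTP12, MYB96, and per list up to 4 genes called in clpp2-2 against wt with the largest change. SEP3 and AP3 were added as the called floral markers, FER and AT3G08740 as the called neighbours. Alternatives were no filter, size factors of DESeq2, its Wald test (DESeq2 1.42.0), voom (limma 3.58.1), the replicate number as a block, only the groups compared, library sizes from nuclear genes, each library left out, wt 1 and clpp2-1 1 left out together, and the counts of neighbouring pairs summed.

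Whether replicate numbers pair libraries is not stated. Over 11806 genes, deviations of same-numbered libraries from their genotype mean correlated at 0.253, 0.21 and 0.115 between clpp2-1 and wt, at 0.0612, 0.0872 and -0.00569 between clpp2-2 and wt, and at -0.169, -0.00995 and -0.179 between clpp2-2 and clpp2-1. The blocked count therefore stands beside the clpp2-1 results. No 2 libraries of a genotype were alike within counting noise (chi-square per gene 6.39 to 33.2). Each test was first tried on simulated data with known changes.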

Additional observations from a re-analysis of the deposited data

Results flagged for a closer look

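For 9 named genes the difference from wt was not the same in both lines, by edgeR's quasi-likelihood test of clpp2-2 against clpp2-1, with adjusted p under 0.05 over all genes. LTP1 to LTP6 and the genes named for their correlation with them are left out, except SEP3, which is also a floral marker. EARLI1, named above with its cluster, is not among the 9 but was also called lower in clpp2-2 than in clpp2-1. Its log2 fold change was -0.821 (adjusted p = 0.00969 by edgeR), and its call was not followed with libraries left out. DEWAX differed by 0.753 on the log2 scale (clpp2-2 minus clpp2-1), COR15B by 2.50, COR15A by 0.935, CER3 by 0.344 and AT5G55410 by 3.09, all higher in clpp2-2. SEP3 differed by -1.24, ASFT by -0.547, AT4G12520 by -2.98 and AT4G12490 by -1.06, all lower in clpp2-2. COR15B, AT5G55410 and SEP3 stayed called with any 1 library left out. The calls of DEWAX (adjusted p up to 0.0582), ASFT (up to 0.111), COR15A (up to 0.0684), AT4G12520 (up to 0.135) and AT4G12490 (up to 0.113) were each lost without library 3 of clpp2-1 or without library 2 or 3 of clpp2-2. ASFT, COR15A, AT4G12520 and AT4G12490 were lost without library 1 of clpp2-2 too, COR15A without library 2 of clpp2-1, and AT4G12520 and AT4G12490 without library 1 or 2 of clpp2-1 or library 1 or 3 of wt. CER3 was lost without any 1 library of clpp2-2 or clpp2-1 and without library 1 of wt (adjusted p up to 0.123).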

How the results depend on the processing

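The log2 fold changes of LTP3 and LTP4 kept their sign in all 3 comparisons under every alternative run, as did those of LTP6 in the comparisons with clpp2-2 libraries and of LTP2 in clpp2-2 against wt and against clpp2-1. Of 318 recomputed values of the 6 genes, 300 kept their direction and stayed within the spread between replicates or on their side of the threshold, 14 changed sign and 4 moved; the 4 are the values of LTP3 and LTP4 when both are summed (-2.54 against wt and -1.92 against clpp2-1), as summing makes them equal. None of the 6 genes passed the test in clpp2-1 against wt under any alternative. Signs changed only for small values. In clpp2-1 against wt, leaving out 1 library gave ranges of -0.0294 (without clpp2-1 2) to 0.224 for LTP2, -0.0881 (without clpp2-1 2) to 0.0857 for LTP5, which also became -0.0175 without wt 3, and -0.00318 (without clpp2-1 2) to 0.341 for LTP6. In clpp2-2 against wt the range was -0.0490 to 0.172 for LTP1, negative without clpp2-2 2, clpp2-2 3 or wt 3. LTP5 ranged from -0.114 to 0.0960, positive without clpp2-2 1 or wt 2, and LTP7 from -0.175 to 0.0540, positive without the same libraries. LTP10 ranged from -0.390 (without wt 2) to 0.155 (without wt 1), and was 0.155 without wt 1 and clpp2-1 1 together. In clpp2-2 against clpp2-1, LTP1 ranged from -0.185 to 0.0354 and LTP5 from -0.128 to 0.0819, both positive without clpp2-1 2 or clpp2-2 1, and LTP1 was 0.162 with the pairs summed.

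Counts of called genes over the whole table moved more than the values. In clpp2-2 against wt they were 2044, against 3375 with DESeq2, 1216 with only the 2 groups, 727 without wt 1 and clpp2-1 1, and 502 (without clpp2-2 2) to 4242 (without wt 2) with 1 library left out. In clpp2-1 against wt they were 36, against 90 with DESeq2, 23 with the replicate block, 21 with only the 2 groups, 23 without wt 1 and clpp2-1 1, and 23 to 63 with 1 library left out. In clpp2-2 against clpp2-1 they were 806, against 1761 with DESeq2, 513 with the replicate block, 1494 with only the 2 groups, 336 without wt 1 and clpp2-1 1, and 171 to 1463 with 1 library left out. The cause was not tested. Under the replicate block KCS2, KCS20, AP3 and AT4G12510 in clpp2-2 against wt and AT4G12490 and CER3 in clpp2-2 against clpp2-1 lost their call, and 2 wax genes were called in place of 6 in clpp2-2 against wt. With only the 2 groups, KCS2, KCS20, CYP86A8, FAR4, ABCG20 and AP3 lost their call in clpp2-2 against wt (adjusted p = 0.0508 to 0.0908 by edgeR). AT4G12490 lost its call between the lines in that setting (adjusted p = 0.0628 by edgeR). Without the filter, KCS20 and AP3 lost theirs against wt (adjusted p = 0.0505 and 0.0596 by edgeR). AT4G12520 was not called between the lines by limma-voom (adjusted p = 0.0858). Leaving out wt 1 and clpp2-1 1 together ended the calls of KCS1, KCS2, KCS20, CYP86A8, FAR4, ABCG20, HAI2, AT4G12510, AT4G12490 and AP3 in clpp2-2 against wt (adjusted p = 0.0501 to 0.147 by edgeR) and of ASFT, COR15A, CER3, AT4G12520 and AT4G12490 in clpp2-2 against clpp2-1 (adjusted p = 0.0509 to 0.122 by edgeR). Libraries wt 1 and clpp2-1 1 were left out together as libraries rich in seed storage transcripts. This did not remove all such libraries. The median seed storage sum of wt was 23.7 CPM, above the 13.1 CPM of the highest clpp2-1 library. A wt library with at least that median therefore stayed in the fit. The part of these transcripts, and of having fewer libraries, in the lost calls was not tested. With 3 libraries per genotype, small differences such as those of LTP1 and LTP5 cannot be told from 0.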
